A study of Mus musculus with 18 samples.

Results

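The subject is the set of 8-base DNA sequences (8-mers) that carried all of their cytosines on the strand that could be chemically modified. Binding of 3 mouse proteins, CREB1, ATF1 and JUND, was read by fluorescence on protein binding microarrays. Each was a DNA-binding domain with a glutathione S-transferase tag, produced by in vitro transcription and translation. Each array held 40330 probes with 35 variable bases, and a primer extended on them laid down a second strand containing 5-methylcytosine (5mC), 5-hydroxymethylcytosine (5hmC) or plain cytosine (C). Only the newly made strand could therefore carry a modified base, at every cytosine of its sequence, and the printed strand kept plain cytosine. There were 9 groups of 2 arrays, which were CREB1 on 5mC, 5hmC and C, ATF1 on 5mC, 5hmC and C, and JUND on 5mC, 5hmC and C. Nothing in the labels tells if both arrays of a group had their own protein preparation, and p-values here cover array-to-array spread that may be technical. The proteins were isolated domains with short flanks and not full-length proteins, and the modified DNA was modified on 1 strand only.

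An 8-mer is written here as it reads 5′ to 3′ on the modified strand. Members were all 8-mers of the deposited table that held no G and at least 1 C, and that stood on 10 or more probes. With no G, every cytosine of the duplex lay on the modified strand, and none stood in a CpG inside the 8-mer. The table of 65530 8-mers held 6304 such sequences, of which 6002 were on 10 or more probes. These comprised 1023 members with 1 C, 1791 with 2, 1789 with 3 and 1399 with 4 or more, on a median of 17 probes each. The reverse complement of a member holds G and no C on the modified strand, so it is the same duplex with its cytosines on the printed strand, where they stayed plain on all arrays.

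CREB1 and ATF1 are close relatives among the basic leucine zipper (bZIP) family. They bind as dimers to the cAMP response element, each partner reading one side of the palindrome in the major groove. JUND belongs to the AP-1 family of bZIP proteins, which prefer a shorter, pseudo-palindromic site. 5mC is the methylated base that DNA methyltransferases make, mostly at CpG, and 5hmC is the oxidised form that TET enzymes make from it. The methyl and hydroxymethyl groups lie in the major groove, the face of DNA that the basic region of a bZIP protein reads.

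The sequences below are the members on which the results turn. They are shown 5′ to 3′ with the cytosines that were modified in capitals. The first 5 are among those that fell most with CREB1 or ATF1, the next 5 are among those that rose with 5mC, and the last 2 had the largest rise with 5hmC on CREB1 and the highest level with JUND on plain cytosine.
TTACATCA: ttaCatCa
TACATCAC: taCatCaC
CACATCAC: CaCatCaC
TCATAACA: tCataaCa
CATCATTA: CatCatta
CACCACTA: CaCCaCta
ACCACTAC: aCCaCtaC
AATAAACC: aataaaCC
TACAACAT: taCaaCat
CAATACTT: CaataCtt
TTATCCAA: ttatCCaa
ATTACTCA: attaCtCa

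Each 8-mer occurs in many probes with other flanks. The next 3 sequences are the modified strand of a probe of TTACATCA, of CACCACTA and of AATAAACC, with the 8-mer in capitals. Each is the probe with the middle value among those that held no bZIP half-site (TGAC, its complement GTCA, or GCAA and its complement TTGC) and neither ACG nor CGT.
Probe of TTACATCA: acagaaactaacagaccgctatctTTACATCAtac
Probe of CACCACTA: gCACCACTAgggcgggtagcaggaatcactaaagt
Probe of AATAAACC: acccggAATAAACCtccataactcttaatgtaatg
The TTACATCA probe read 0.815 and 1.31 times the array's median background-subtracted signal with CREB1 on 5mC, 0.382 and 0.643 times on 5hmC, and 6.42 and 4.21 times on C. The CACCACTA probe read 2.83 and 2.77 times the median with ATF1 on 5mC, 1.85 and 1.54 times on 5hmC, and 1.37 and 1.29 times on C. The AATAAACC probe read 1.79 and 3.60 times the median with JUND on 5mC, 0.922 and 0.119 times on 5hmC, and 0.987 and 0.960 times on C. These 3 probes moved in the direction of their 8-mers. A probe of TCATAACA picked in the same way did not: it read 1.64 and 1.28 times the median with ATF1 on 5mC, 0.814 and 1.28 times on 5hmC, and 0.809 and 1.08 times on C, although TCATAACA had the largest fall on ATF1.

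Levels are the z-scores that the authors deposited, which had a median near 0 on each array and were treated here as a linear score. Members were mostly weak binders beside the best 8-mers of the whole table, which reached a mean z-score of 164.7 for TGACGTCA with CREB1 on C, 108.4 for TACGTCAC with ATF1 on C and 70.45 for TGAGTCAT with JUND on C. The highest z-score of any member on any array was 18.8. Taking a z-score of 4 or more as bound, CREB1 bound 12 and 9 members on the 2 arrays with 5mC, 10 and 6 with 5hmC, and 44 and 72 with C. These are 0.2% and 0.15%, 0.167% and 0.1%, and 0.733% and 1.2% of members; of all 8-mers on at least 1 probe, CREB1 bound 2.53% and 1.96% on 5mC, 1.72% and 1.8% on 5hmC, and 4.25% and 5.99% on C. ATF1 bound 18 and 21 members on 5mC, 2 and 4 on 5hmC, and 27 and 31 on C. These are 0.3% and 0.35%, 0.0333% and 0.0666%, and 0.45% and 0.516% of members. The shares of all 8-mers were 1.16% and 1.28%, 0.564% and 0.462%, and 2.96% and 3.0%. JUND bound 53 and 68 members on 5mC, 16 and 10 on 5hmC, and 34 and 23 on C. These are 0.883% and 1.13%, 0.267% and 0.167%, and 0.566% and 0.383% of members. The shares of all 8-mers were 0.978% and 0.981%, 0.564% and 1.25%, and 1.59% and 0.375%. The 2 arrays of a group correlated across members with a Pearson r from 0.406 for JUND on 5hmC to 0.816 for ATF1 on 5mC (a description over 6000 to 6002 8-mers that share probes). The median probe signal was brightest on the JUND 5mC arrays, at 8014 and 7610 units, and faintest on an array of JUND with 5hmC, at 519 units.

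On CREB1, more members fell than rose with either modification. With 5mC, 38 members were higher and 162 lower than with C, and with 5hmC 25 were higher and 160 lower (limma on all 18 arrays, Benjamini-Hochberg adjusted p under 0.05 over 65121 8-mers). These are 3.33% and 3.08% of members, below the 8.45% and 7.89% of all 8-mers called in the same 2 comparisons. Of all 8-mers, 2.25% rose and 6.21% fell with 5mC, and 1.12% rose and 6.78% fell with 5hmC. The 6298 8-mers with G and no C carry no modified cytosine. Of these, 3 were higher and 50 lower on CREB1 with 5mC (0.842%). With 5hmC, 163 of them were higher and 17 lower (2.86%). On ATF1, 65 members were higher and 38 lower with 5mC (1.72% of members, 3.25% of all 8-mers). With 5hmC, 5 members were higher and 36 lower (0.683%, against 2.18% of all 8-mers). Of all 8-mers on ATF1, 1.19% rose and 2.06% fell with 5mC, and 0.0998% rose and 2.08% fell with 5hmC. On JUND, 68 were higher and 7 lower with 5mC (1.25%, against 1.04% of all 8-mers, of which 0.799% rose and 0.244% fell). With JUND on 5hmC against C no member passed limma's test, and no 8-mer of the whole table passed either (0.0%). At an unadjusted p under 0.05 there were 502 members (8.36%), beside 9.4% of all 8-mers. The 5mC and 5hmC comparisons of a protein share its C arrays, so the counts are given side by side only. CREB1 counts rested partly on 1 array: without the second CREB1 C array they came to 71 with 5mC and 75 with 5hmC, and without the first CREB1 5hmC array the 5hmC count was 72. Without the first CREB1 5mC array the 5mC count was 97, and without the second 120. On ATF1, each of the 4 arrays in a comparison moved its count when left out, to between 2 and 9 members with 5mC and between 1 and 10 with 5hmC. On JUND the 5mC count came to 12 without the first C array and 173 without the second 5hmC array, and 115 members were called with 5hmC without the first 5hmC array.

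The members that fell were led by those with CATCA, which differs by 1 letter from CGTCA, which the cAMP response element holds on both of its strands. There were 106 such members. On CREB1, 53 of them fell and none rose with 5mC, and 57 fell and none rose with 5hmC. They made up 32.7% and 35.6% of all members that fell, and 1.77% of members. Their median z-score on CREB1 was -0.107 and 0.226 on the 5mC arrays, 0.0723 and 0.0608 on the 5hmC arrays, and 2.01 and 2.66 on the C arrays. The median change was -2.21 with 5mC and -2.24 with 5hmC, beside -0.103 and -0.0497 over all members and -0.0631 and -0.0616 over all 8-mers tested. ATF1 gave the same direction: 19 fell and none rose with 5mC (median change -1.38), and 22 fell and none rose with 5hmC (median change -1.86). On JUND, 2 fell with 5mC and none with 5hmC, with median changes of -0.0376 and -0.685. The CREB1 counts of falls ran from 33 to 54 with 5mC and from 31 to 60 with 5hmC when arrays were left out one at a time. Both were lowest without the second C array, and they were 35 without the first 5mC or the first 5hmC array. They were 24 and 19 under quantile normalization, and 25 and 24 on log2 signals of probes without a half-site. For ATF1 they ran from 0, without either 5mC array, to 37, and from 1, without the first 5hmC array, to 43.

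The level on plain cytosine varied widely with the bases around ACATCA. All 27 members with ACATCA were measured, and 17 of them fell on CREB1 with 5mC, 17 with 5hmC, and none rose with either. Without the second CREB1 C array 10 fell with each modification, and without the first 5hmC array 11 fell with 5hmC. Among those with ACATCA at their 3′ end, TTACATCA averaged 11.3 on CREB1 with C, CCACATCA 9.66 and ACACATCA 7.67, whereas TAACATCA averaged 0.358. The same 4 averaged 0.201, 1.62, 1.44 and -0.104 with 5mC. With 5hmC, none of the 27 averaged above 2.30. Of 27 members with TCATCA, 18 fell with 5mC and 19 with 5hmC on CREB1, and of 26 with CCATCA, 6 and 8 fell. Both of these words were picked after values were seen.

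TTACATCA had the largest fall on CREB1 with both modifications. Its z-score was 0.280 and 0.122 with 5mC, -0.0440 and -0.737 with 5hmC, and 9.49 and 13.2 with C. The arrays did not overlap, and both modified groups lay at the level of an average 8-mer. The change was -11.1 ± 1.05 (SE, limma adjusted p = 4.185e-07) with 5mC and -11.7 ± 1.05 (adjusted p = 2.17e-07) with 5hmC. On ATF1 it read -0.382 and -0.584 with 5mC, 0.342 and -0.0948 with 5hmC, and 5.58 and 5.28 with C, changes of -5.91 (limma adjusted p = 0.00549) and -5.30 (adjusted p = 0.0103). The ATF1 call with 5mC was lost without the first C array or either 5mC array (adjusted p up to 0.102), and that with 5hmC without any 1 of the 4 arrays or under quantile normalization (up to 0.0935). On JUND, TTACATCA read 0.300 and 0.143 with 5mC, 3.70 and 1.48 with 5hmC, and 3.16 and 2.02 with C. It differs from TGACGTCA, the full cAMP response element, by 2 letters.

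TACATCAC, the same core moved by 1 base, read -0.239 and -0.232 on CREB1 with 5mC, 0.270 and 0.314 with 5hmC, and 6.08 and 13.7 with C. The changes were -10.1 ± 1.38 (limma adjusted p = 3.52e-05) with 5mC and -9.59 ± 1.38 (adjusted p = 6.859e-05) with 5hmC. TTACATCA and TACATCAC shared 4 of their 18 and 19 probes. Both kept their CREB1 falls under all 24 alternative settings tried, which include leaving out the probes with a half-site. CACATCAC, with 4 cytosines, read -0.321 and 2.00 on CREB1 with 5mC, 0.0189 and 0.686 with 5hmC, and 10.4 and 11.2 with C. Its changes were -9.96 ± 1.00 and -10.4 ± 1.00 (limma adjusted p = 9.049e-07 and 4.65e-07). Under quantile normalization both calls missed the threshold, and without the probes that held a half-site, 8 of its 15, the 5mC call did too (adjusted p = 0.0558).

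On ATF1 the largest fall was that of TCATAACA, which lacks CATCA and holds TCAT. It read 0.421 and 1.16 on ATF1 with 5mC, -0.447 and 1.81 with 5hmC, and 8.02 and 8.15 with C, the highest mean of any member there. The changes were -7.30 ± 1.05 (limma adjusted p = 0.00172) and -7.41 ± 1.05 (adjusted p = 0.00133). A half-site stood on 9 of its 16 probes, and on the other probes alone neither the 5mC nor the 5hmC fall was called (adjusted p = 0.726 and 0.306). The 5hmC call was also lost without the first ATF1 5hmC array. On CREB1 the same member read 1.32 and 0.257 with 5mC, 1.80 and 0.765 with 5hmC, and 6.81 and 9.52 with C. The other named ATF1 falls were TCATCACT with 5mC, at 0.499 and 0.772 against 6.42 and 5.33 with C, and CATCATTA with 5hmC, at -0.190 and 0.574 against 4.94 and 5.74 with C. Neither was called without the half-site probes (adjusted p = 0.147 and 0.343). TCATCACT also lost its call without the first C array or either 5mC array, and CATCATTA without the first 5hmC array. All named ATF1 falls held TCAT or CATCA, of which TCAT was picked after values were seen.

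CREB1 and ATF1, which share no arrays, had falls in common. With 5mC, 27 members fell on both CREB1 and ATF1, 16.7% of those on CREB1 and 71.1% of those on ATF1, and with 5hmC 25 did, 15.6% and 69.4%. CREB1 and JUND shared 2 falls with 5mC, 1.23% and 28.6%. All arrays carried the same probes and flanks, so the shared falls are not independent of the probes. Their calls also came from the same fit with a shared estimate of spread. The overlap of falls over all sequences tested is not given here.

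The reverse complements gave the same duplexes with plain cytosine throughout. On CREB1, TGATGTAA, the reverse complement of TTACATCA, read 6.85 and 2.63 with 5mC, 10.9 and 23.8 with 5hmC, and 5.10 and 11.0 with C. TTACATCA lay near 0 with 5hmC, whereas this orientation overlapped its C arrays, and its own change of 9.31 ± 2.92 missed the threshold (limma adjusted p = 0.0563). The difference of the 2 orientations in their response to 5hmC was -21.0 ± 2.77 (limma adjusted p = 0.000172). For TACATCAC it was -19.9 ± 3.53 (adjusted p = 0.00271), with GTGATGTA at 11.7 and 30.2 on 5hmC and 8.63 and 12.7 on C. Without the half-site probes these 2 differences had adjusted p-values of 0.0940 and 0.0565. With 5mC the difference of orientations on CREB1 was not called for either member. It was -7.85 for TTACATCA and -4.29 for TACATCAC (limma adjusted p = 0.140 and 0.644). For CACATCAC it was called with 5mC, at -6.94 (limma adjusted p = 0.00222). For GTGATGTG, the reverse complement of CACATCAC, the rise with 5hmC itself was called, at 11.8 and 14.9 against 7.15 and 8.01 with C (change 5.81, limma adjusted p = 0.0413).

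Across the CATCA list on CREB1, the median z-score of the 106 reverse complements was 1.91 and 1.66 with 5mC, 3.91 and 4.90 with 5hmC, and 2.13 and 2.83 with C. Of these reverse complements, 19 rose and none fell with 5hmC, and 2 fell with 5mC. The strand difference, the change of a member minus that of its reverse complement, was negative by the test for 62 of the 106 with 5hmC (median -4.08) and for 6 with 5mC (median -1.03). With 5hmC it ran from 39 to 65 members when single arrays were left out, with the lowest count without the second 5hmC array, and was 3 on probes without a half-site. On ATF1 it was negative for 5 of 106 with 5hmC (median -1.94), and positive for 4 and negative for none with 5mC (median -0.271). The reverse complements, which carry no modified cytosine, also moved down on ATF1 with 5mC, by a median of -1.13. With 5hmC their median change there was 0.163. Their median z-score on ATF1 was 1.36 and 1.13 with 5mC, 2.72 and 2.46 with 5hmC, and 2.69 and 2.38 with C. Over all members on CREB1 with 5hmC, 14 strand differences were positive and 206 negative, 3.67% of 5995 testable members, beside 4.26% of all 32225 pairs. Of the 206, only the member was called (lower) in 81, and only the reverse complement (higher) in 45. Both were called in 23 and neither in 57. With 5mC on CREB1, 41 strand differences were positive and 50 negative (1.52%, beside 5.05% of pairs). Of these 50, only the member was called in 34 and neither orientation in 16. On ATF1 the counts were 55 positive and 12 negative with 5mC (1.12%, beside 2.03% of pairs) and 1 and 7 with 5hmC (0.133%, beside 0.223%). On JUND they were 115 and 21 with 5mC (2.27%, beside 1.95%). With 5hmC on JUND limma called none, beside 0.0% of pairs. At the looser threshold of an unadjusted p under 0.05 there were 601 members, and that share of all pairs is not given here.

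Positive strand differences on CREB1 were of several kinds. Of the 41 with 5mC, the member itself was called higher in 9, the reverse complement was called lower in 17, both were called in 1 and neither in 14. Of the 14 with 5hmC, the member was called in 3, the reverse complement in 6 and neither in 5. The named ones with the largest size were of the second kind, with a member below a z-score of 2 on all CREB1 arrays. TTCCTCAC read -0.654 and -0.457 on CREB1 with 5mC, 0.0990 and -0.676 with 5hmC, and 0.754 and -0.176 with C. Its reverse complement GTGAGGAA read 1.03 and 0.987 with 5mC, 2.24 and 2.83 with 5hmC, and 6.87 and 9.12 with C, although it carries no modified cytosine. TCATAACC with 5mC and AAACTTAC with 5hmC had positive strand differences on CREB1 too, with GGTTATGA at 2.07 and 0.158 with 5mC against 7.58 and 6.51 with C, and GTAAGTTT at 3.40 and 2.05 with 5hmC against 6.21 and 8.25 with C. None of these CREB1 differences was called under quantile normalization or without half-site probes, and those of TTCCTCAC turned their sign under some log2 settings. ACCACTAC, with a strand difference of 4.04 on CREB1 with 5mC (limma adjusted p = 0.00355), was of the first kind. On ATF1 with 5hmC the 1 positive one was TTTATCAT, which lost its call in 4 of 24 alternatives and whose reverse complement ATGATAAA read 0.182 and 0.880 with 5hmC and 8.31 and 5.12 with C. Modified cytosines in the flanks of those probes were not part of the 8-mer, and their part in these values was not tested.
The strongest negative ones with 5mC on CREB1 were CCACATCA, at 0.586 and 2.66 with 5mC against 8.65 and 10.7 with C, and TCATAACA, given above. Their strand differences were -8.57 and -8.33 (limma adjusted p = 4.66e-05 and 0.000148), and neither was called under quantile normalization or without half-site probes. On ATF1 the negative ones with the largest size were TCATAACA and TAACATAC with 5mC (-6.87 and -4.15) and CATCATCA and TCATAACA with 5hmC (-6.515 and -6.35). With 5mC that of TAACATAC was lost in 16 of 24 alternatives and that of TCATAACA in 4. With 5hmC that of CATCATCA was lost in 8 (adjusted p up to 0.791) and that of TCATAACA in 7 (up to 0.868).

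Members bound on plain cytosine were followed from the first C array of each protein, so that the second C array and the modified arrays were independent of the choice. Of 44 members with a z-score of 4 or more on the first CREB1 C array, 34 reached 4 on the second, with a median of 6.28. On 5mC 3 and 0 of them did, with medians of 1.04 and 1.36, and on 5hmC 4 and 3 did, with medians of 0.594 and 0.922. Their reverse complements had medians of 2.36 and 1.85 with 5mC, 4.09 and 5.36 with 5hmC, and 2.00 and 2.95 with C. Of 27 ATF1 members so chosen, 18 reached 4 on the second C array, 1 and 0 on 5mC, and 0 and 1 on 5hmC. Of 34 JUND members, only 1 reached 4 on the second C array, so that JUND levels could not be followed in this way.

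Other part-sites without G were counted from lists of known motifs. For scale, of all 65121 sequences tested, 2.25% rose and 6.21% fell on CREB1 with 5mC. With 5hmC, 1.12% rose and 6.78% fell on CREB1. On JUND with 5mC, 0.799% rose and 0.244% fell. Of 108 members with TTACA, 17 fell and none rose on CREB1 with 5mC, and 14 fell and 2 rose with 5hmC. The falls came to 9 with 5mC and 5 with 5hmC without the second CREB1 C array, to 11 with 5mC without the first 5mC array, and to 5 with 5hmC without the first 5hmC array. Of their reverse complements, 44 rose and none fell on CREB1 with 5hmC. TCATTACA, the member with the highest mean on CREB1 with C, read 3.43 and 2.64 with 5mC, 4.34 and 4.42 with 5hmC, and 9.48 and 15.9 with C. ATTACACA was called lower with 5mC only (change -3.57, limma adjusted p = 0.0445): it read 2.51 and 2.66 with 5mC, 5.58 and 5.54 with 5hmC, the highest member there, and 6.52 and 5.78 with C. ACTCA, part of the AP-1 site, was in 108 members, of which 3 rose and 2 fell on CREB1 with 5mC, and 1 fell and none rose on JUND with 5mC. Members with CAAT, the end of the CCAAT box and a piece of C/EBP sites, rose in 9 and fell in 1 of 397 cases on CREB1 with 5mC, and rose in 10 and fell in 4 with 5hmC. The CAAT rises with 5mC were close to the share of all sequences tested. Leaving out single arrays took the rises with 5mC to 5 without the first 5mC array, 4 without the first C array and 2 without the second. It took the rises with 5hmC to 3 or 4 without a 5hmC array and to 1 without either C array. With CCAAT itself, 5 of 102 rose on CREB1 with 5hmC and none fell, and none of the 102 changed with 5mC.

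Rises with 5mC were led on ATF1 by CACCACTA, which read 7.94 and 11.4 with 5mC, 3.40 and 2.39 with 5hmC, and 1.13 and 0.541 with C. The arrays did not overlap, and the change with 5mC was 8.84 ± 1.65 (limma adjusted p = 0.00751). Its reverse complement TAGTGGTG stayed low on ATF1, at -0.179 and -0.306 with 5mC and 0.394 and 0.870 with C, a strand difference of 9.72 ± 1.51 (limma adjusted p = 0.00492). CACCACTA also read 3.55 and 6.62 on CREB1 with 5mC, against 0.881 and 0.284 with C. On JUND it read 9.58 on the 1 array with 5mC that held a value, against 2.39 and 4.75 with C. TACAACAT read 7.11 and 7.06 on ATF1 with 5mC, 3.10 and 3.39 with 5hmC, and 2.69 and 2.03 with C (change 4.73 ± 1.09, limma adjusted p = 0.0225). AACACCAC read 7.06 and 3.83 on ATF1 with 5mC and 0.754 and 0.0140 with C, and 6.47 and 7.74 on JUND with 5mC and -0.667 and 3.69 with C. Each of these 3 ATF1 rises lost its call when some single ATF1 array was left out, and none was called on log2 signals of probes without a half-site, where AACACCAC had 7 of its 16 probes left and turned its sign (adjusted p = 0.931).

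On CREB1 the named rises with 5mC were smaller. ACCACTAC, which overlaps CACCACTA by 7 bases and shared 4 probes with it, read 2.93 and 4.93 with 5mC, 0.863 and 0.255 with 5hmC, and 0.786 and 0.528 with C (change 3.27 ± 0.743, limma adjusted p = 0.00593). TCCTACAA read 2.66 and 3.62 with 5mC and 0.0489 and -0.244 with C, and CAATACTT 3.28 and 3.02 with 5mC and -0.356 and 0.493 with C (limma adjusted p = 0.00382 and 0.00446). The highest members on CREB1 with 5mC were CACTACCA, at 6.61 and 4.64 against 2.63 and 2.01 with C, and CACCACTA. On log2 signals of probes without a half-site, ACCACTAC was still called (adjusted p = 0.0361), and TCCTACAA and CAATACTT were not (0.141 and 0.874). Without the second CREB1 5mC array, neither ACCACTAC nor TCCTACAA was called.

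On JUND the largest rise with 5mC was AATAAACC, at 7.76 and 10.7 with 5mC, 2.25 and 0.609 with 5hmC, and 1.99 and 1.83 with C. The change was 7.31 ± 0.977 (limma adjusted p = 0.00329), and the strand difference against GGTTTATT was 7.69 ± 1.06 (adjusted p = 0.00646). ATCCCAAC read 3.24 and 7.26 with 5mC and -0.757 and -0.0175 with C (adjusted p = 0.00972). The rise of AATAAACC lost its call in 3 of 24 alternatives, among them the fit with only the JUND arrays, and that of ATCCCAAC in 6. Beside the 75 members called on JUND with 5mC, the count was 0 with only the JUND arrays in the fit, 0 on log2 signals, and 313 on log2 signals after normexp background correction. The JUND 5mC arrays were also the brightest of all, at 8014 and 7610 units of median probe signal against 1961 and 713 units with C, and the part of this brightness in the result was not tested.

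On all 3 proteins, which used separate arrays, 4 members rose with 5mC. They were CACCCACT, TCCTACAA, CAATACTT and CTATACTA, of which CACCCACT and CTATACTA were chosen after their values were seen. CAATACTT read 3.57 and 4.25 on ATF1 with 5mC against 0.233 and -0.630 with C, and 3.75 and 3.60 on JUND with 5mC against 0.0676 and -0.236 with C. CACCCACT read 3.19 and 2.93 on CREB1 with 5mC against 0.831 and -0.163 with C, 4.01 and 4.58 on ATF1 with 5mC against 0.830 and 1.03 with C, and 3.40 and 4.29 on JUND with 5mC against -0.418 and 0.232 with C. ATF1 shared 14 rises with CREB1 (21.5% of the ATF1 rises, 36.8% of the CREB1 rises) and 17 with JUND (26.2% of the ATF1 rises, 25.0% of the JUND rises). CREB1 and JUND shared 8 (21.1% and 11.8%). The same probe design and flanks stood on all arrays, so these overlaps are not independent of the probes. The calls also came from the same fit with a shared estimate of spread, and the overlap over all 8-mers is not given here.

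Ranked over the 64 tetranucleotides with a C that members hold, the mean change of members with 5mC was highest for ACAA on CREB1 (0.396), CCAC on ATF1 (0.682) and CTAC on JUND (0.732). CCAC stood among the highest 3 on all 3 proteins. The lowest was TCAT on each of them, at -1.15 on CREB1, -0.783 on ATF1 and -0.316 on JUND. CTAC, a word picked after values were seen, was in 386 members. For scale, of all 8-mers with 5mC, 2.25% rose and 6.21% fell on CREB1. On ATF1 1.19% rose and 2.06% fell, and on JUND 0.799% rose and 0.244% fell. Of the members with CTAC, 12 rose and 2 fell on CREB1 with 5mC. On ATF1 19 rose and none fell, and on JUND 8 rose and none fell. When arrays were left out one at a time these rises ran from 3 to 16 on CREB1, lowest without the second C array. They ran from 0 to 25 on ATF1, with at most 2 left without any 1 of the 4 arrays compared, and from 1 to 13 on JUND, lowest without the first C array. With 5hmC the same word gave no rise and 8 falls on CREB1 (2 falls without the second C or the first 5hmC array) and no rise and 2 falls on ATF1. Of all 8-mers with 5hmC, 1.12% rose and 6.78% fell on CREB1, and 0.0998% rose and 2.08% fell on ATF1. The falls of members with CTAC with 5hmC were below these shares on both proteins. CAAT led on CREB1 with 5hmC (0.335), and AACT on ATF1 with 5hmC (0.357), while CATC was lowest on both (-1.04 and -0.693).

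Members with more cytosines had higher changes with 5mC. With 5mC the median change on ATF1 was -0.227 for members with 1 C, -0.000745 with 2, 0.147 with 3 and 0.267 with 4 or more. On JUND the medians were -0.0917, 0.172, 0.399 and 0.480, and on CREB1 -0.270, -0.156, -0.0703 and 0.0332. With 5hmC the order ran the other way, at 0.241, 0.0395, -0.153 and -0.187 on CREB1 and 0.393, 0.225, 0.00621 and -0.0101 on ATF1. On JUND with 5hmC the 4 medians lay between -0.0875 and 0.0642. The 8-mers with G and no C, which carry no modified cytosine, also shifted with their number of G. With 5hmC their medians were 0.572, 0.530, 0.361 and 0.159 on CREB1 and 0.590, 0.439, 0.325 and 0.261 on ATF1, the same order as in members. With 5mC they were -0.321, -0.259, -0.171 and -0.103 on ATF1, again in the members' order. They were -0.260, -0.121, -0.138 and -0.156 on CREB1, and -0.408, -0.413, -0.463 and -0.466 on JUND. Members of 4 or more C stood above those of 1 C with 5mC in all 25 settings for ATF1 and JUND, many of which leave out arrays of another protein and so cannot move these medians. On CREB1 the order turned without the second 5mC array, where their difference was -0.115, against 0.303 with all arrays. With 5hmC they stood below in all 25 settings for CREB1 and ATF1.

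The calls followed the cytosine number in part. The classes held 1023 members with 1 C, 1791 with 2, 1789 with 3 and 1399 with 4 or more. In that order, rises on ATF1 with 5mC were 2, 9, 26 and 28, and falls 1, 11, 21 and 5. Of all 8-mers there, 1.19% rose and 2.06% fell. On JUND with 5mC, rises were 1, 13, 27 and 27, and falls 3, 2, 1 and 1. Of all 8-mers there, 0.799% rose and 0.244% fell. On CREB1 with 5hmC, rises were 9, 7, 9 and 0, and falls 9, 40, 71 and 40. These CREB1 falls were most numerous with 3 C. The called shares of the classes on CREB1 were 1.76%, 2.62%, 4.47% and 2.86%, below the 7.89% of all 8-mers. Counted by the longest run of cytosines, ATF1 with 5mC had 21 rises and 28 falls among 3086 members with single cytosines, and 10 rises and no fall among 737 with a run of 3. No member held a longer run.

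Rises with 5hmC were few and small. On CREB1 the largest was TTATCCAA, at -0.103 and -0.953 with 5mC, 1.89 and 2.69 with 5hmC, and -0.927 and -0.221 with C (change 2.86 ± 0.487, limma adjusted p = 0.000414). It was called under all 24 alternative settings. Its reverse complement TTGGATAA read 1.76 and 1.76 with 5hmC and 0.992 and 1.52 with C. ATCCAACA and TTACTTCC followed, with changes of 2.82 and 2.50 (limma adjusted p = 0.00213 and 0.00252), and neither was called on probes without a half-site. On ATF1 the 3 named rises were ACTTAATA, AACCTTTA and AACTTTTT, with changes of 3.18, 2.47 and 1.97 (limma adjusted p = 0.0202, 0.0178 and 0.0411). ACTTAATA and AACCTTTA each lost their call without any 1 of the 4 ATF1 arrays compared, and AACTTTTT was called in 10 of 24 alternatives (adjusted p up to 0.66). ACTTAATA read 2.55 and 4.01 with 5hmC against 0.548 and -0.351 with C. None of these reached a z-score of 4 on both arrays. The highest members on ATF1 with 5hmC were TAACACAC, at 3.98 and 3.39, and TACAAACT, at 2.48 and 4.83.

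On JUND with plain cytosine the highest member was ATTACTCA, at 0.0768 and 0.285 with 5mC, 2.05 and 0.740 with 5hmC, and 18.8 and 3.22 with C. The 2 C arrays differed widely, and no fall of this member was called. Its reverse complement TGAGTAAT read 3.63 and 1.496 with 5mC, 21.5 and 0.0603 with 5hmC, and 18.2 and 4.26 with C. The 3 named JUND falls with 5mC were TCATCAAA, TTAATCAT and TTACTCAC, the last at -0.0521 and -1.21 with 5mC against 4.90 and 1.96 with C (change -4.06 ± 0.740, limma adjusted p = 0.0146). These falls depended on the setting: TTAATCAT kept its call in 5 of 24 alternatives, TCATCAAA in 17 and TTACTCAC in 19. All 3 lost it with only the JUND arrays in the fit, on log2 signals and without the second 5mC array. Single arrays also set the highest members on 5hmC: CCCACCCA read 11.2 and 1.4998, and TCACACAT 1.09 and 11.0. AAACCAAA, high on JUND with C, read 3.57 and 6.77 with 5mC, 2.42 and -0.483 with 5hmC, and 10.3 and 3.14 with C. The negative strand differences with 5mC on JUND, CTTCTTTT and TTACTCTT, had reverse complements that were high with 5mC: AAAAGAAG read 6.34 and 10.3 with 5mC and 0.970 and 2.37 with C, and AAGAGTAA 4.61 and 6.98 with 5mC and 0.156 and 1.82 with C.

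The 2 modifications were also set against each other. On CREB1, 5 members were higher and 5 lower on 5hmC than on 5mC (0.167% of members). Of all 8-mers 0.952% were called there, 0.186% higher and 0.766% lower. On ATF1, 9 were higher and 22 lower (0.516% of members, beside 0.725% of all 8-mers, 0.134% higher and 0.591% lower). On JUND 9 were higher and 209 lower (3.63% of members, beside 3.11% of all 8-mers, 0.946% higher and 2.16% lower). No member with CATCA differed between 5hmC and 5mC on CREB1 or ATF1, with median differences of -0.215 and -0.463. On JUND 36 of 396 members with ACCA, a word picked after values were seen, were lower on 5hmC than on 5mC and none was higher. The JUND count was 0 with only the JUND arrays in the fit and 35 on log2 signals. The median difference by cytosine number was 0.516, 0.199, -0.111 and -0.216 on CREB1, 0.594, 0.207, -0.163 and -0.317 on ATF1, and 0.164, -0.204, -0.456 and -0.572 on JUND, from 1 C to 4 or more.

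The difference between CREB1 and ATF1 in the effect of a modification was tested directly. No member passed limma's test for 5mC or for 5hmC, beside 0.272% and 0.215% of all 8-mers. At the looser threshold of an unadjusted p under 0.05 there were 193 and 216 members (3.22% and 3.60%). The share of all 8-mers at that looser threshold is not given here. For TTACATCA the effect was more negative on CREB1 by -5.23 with 5mC and -6.43 with 5hmC (limma adjusted p = 0.241 and 0.0994). Without the first CREB1 C array, 25 and 18 members passed. The changes on CREB1 are therefore not shown to differ from those on ATF1.

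Motifs of other families served for comparison. With 5mC, of all 65121 sequences tested, 2.25% rose and 6.21% fell on CREB1. On ATF1 1.19% rose and 2.06% fell, and on JUND 0.799% rose and 0.244% fell. On CREB1 with 5mC, members with TTCC, the core of ETS sites read on this strand, rose in 2 and fell in 5 of 376 cases, and those with TATC, the core of GATA sites, rose in 1 and fell in 3 of 397. The counts for TTCC and TATC lay below the CREB1 shares of all sequences tested. Of 80 members with CACCC, a KLF-type core, 2 rose and 2 fell on CREB1, 3 rose and none fell on ATF1, and 3 rose and none fell on JUND with 5mC. With ACAAT, part of SOX sites, 4 of 108 rose on CREB1, 7 on ATF1 and 2 on JUND with 5mC, and none fell. The ACAAT rises lay above the shares of all sequences tested, but rest on few members. Of 27 members with AACCAC, a RUNX-type core, 2 rose on ATF1 with 5mC and none changed on CREB1. Members with TAAACA, a forkhead-type core, rose in 1 of 27 cases on CREB1 and on ATF1 and fell in 1 on CREB1. With CATTCC, a TEAD-type core, 1 of 26 fell on CREB1 and 1 rose on ATF1 and on JUND. None of the 6 members with TCACACC, part of T-box sites, changed in these 3 comparisons. Of 26 members with CACACA, 1 rose on CREB1 and 1 on JUND.

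Of the 302 sequences on fewer than 10 probes, 131 were on none and 298 held 4 or more cytosines. The 52 members on 10 or 11 probes averaged between -1.58 and 3.23 on CREB1 with 5mC, between -1.86 and 2.57 with 5hmC, and between -1.64 and 2.93 with C. The 4 sequences on 8 or 9 probes averaged between -0.458 and 1.77 with 5mC, between -1.21 and 0.841 with 5hmC, and between -0.749 and 1.95 with C.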

How the data were processed

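Binding of 3 proteins was read on 18 arrays, 2 for each of 9 groups. The 8-mer z-scores were deposited by the authors and were treated here as a linear score. Neither labels nor headers state the steps behind that score. The probe intensities were deposited by the authors as median signal and local background per probe, not subtracted, per the file headers. A median probe signal of 519 to 8014 units and 2 arrays a group limit the precision.

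The main test was limma 3.58.1 (R 4.3.3) on the z-scores of 65121 8-mers on at least 1 probe, with 1 mean per group, a trended eBayes fit on all 18 arrays and Benjamini-Hochberg adjustment over all of them at 0.05. The strand difference used 32225 pairs. A z-score was empty in 6 cells of the table, including 2 members on 1 JUND 5mC array, and limma left these values out. Probes of an 8-mer were those holding it on the modified strand, and 16335 probes (40.5%) held a half-site.

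Members, motif lists and the rule for named 8-mers were chosen with earlier results of these data known. Named were up to 3 rises and 3 falls per comparison with C among called members whose arrays did not overlap, the 2 highest members per group, and up to 2 strand differences each way. The lists were the number and longest run of cytosines, the bZIP-type and other cores given in the report, and tetranucleotides. Alternatives were the replicate number as a block, only the arrays of the proteins compared, quantile normalization, log2 signals recomputed from the deposited intensities (with subtraction, with normexp and offset 50, and without half-site probes), 15 or more probes, and leaving out each array.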

Additional observations from a re-analysis of the deposited data

Results flagged for a closer look

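For 2 named members, every array moved one way on CREB1 and ATF1 and the opposite way on JUND. TACATCAC changed with 5mC by -10.1 on CREB1, -3.97 on ATF1 and 0.656 on JUND. ATCCAACA changed with 5hmC by 2.82 on CREB1, 1.56 on ATF1 and -1.11 on JUND. Of these, only the CREB1 changes passed limma's test, and the difference from JUND was not tested.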

How the results depend on the processing

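Counts of called members moved by over 1.5 times in at least 1 comparison under each of 6 settings. Under quantile normalization the counts were 57 with 5mC and 51 with 5hmC on CREB1, 63 with 5hmC on ATF1, 87 for 5hmC against 5mC on ATF1, and 128 with 5mC and 5 with 5hmC on JUND; strand differences were 6 and 95 on CREB1 with 5mC and 5hmC, 70 on ATF1 with 5hmC, and 220 and 6 on JUND. On log2 signals they were 0 for JUND with 5mC and 35 for its 5hmC against 5mC, with strand differences of 91 for CREB1 with 5hmC, 1 for ATF1 with 5hmC and 0 for JUND with 5mC. With normexp they were 113 for CREB1 with 5hmC, 39 for its 5hmC against 5mC, 557, 111 and 509 for ATF1 with 5mC, with 5hmC and between them, and 313 and 606 for JUND with 5mC and between them, with strand differences of 152 and 91 on CREB1, 623 on ATF1 with 5mC and 720 on JUND with 5mC. Without half-site probes they were 74, 68 and 0 on CREB1 (5mC, 5hmC, between), 21 and 6 on ATF1, and 0 with 5mC and 20 between on JUND, with strand differences of 6 and 10 on CREB1, 1 and 0 on ATF1 and 0 on JUND. With only the arrays of the proteins compared they were 6 between modifications on CREB1, 242, 108 and 120 on ATF1, and 0 with 5mC and 0 between on JUND, with strand differences of 44 and 129 on CREB1, 178 and 48 on ATF1 and 0 on JUND. On 15 or more probes 6 members differed between modifications on CREB1. Apart from the construction of each setting, the cause was not tested.

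Leaving out single arrays, counts ran on CREB1 from 71 to 245 (5mC), 72 to 231 (5hmC) and 2 to 22 (between), on ATF1 from 2 to 163, 1 to 70 and 0 to 96, and on JUND from 12 to 173, 0 to 115 and 50 to 362. The lowest and highest count between modifications on CREB1 came without its first 5hmC array and without the first JUND 5hmC array, those on ATF1 without its second 5mC array and without the first JUND 5hmC array, and those on JUND without its second 5mC array and its first 5hmC array. The difference between CREB1 and ATF1 ran from 0 to 25 (5mC) and 0 to 18 (5hmC). Strand differences ran from 30 to 111 and 100 to 263 on CREB1, lowest without the second C array, from 2 to 98 and 1 to 13 on ATF1, and from 20 to 243 and 0 to 106 on JUND. A lone array left in a group was assumed to vary like the other groups.

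The replicate numbers did not pair the arrays (r of deviations from -0.144 to 0.234 between groups of a protein). With the replicate block 200 CREB1 calls with 5mC became 184 and 31 ATF1 calls between modifications became 20. Of 1222 values for named members under alternatives, 1011 kept direction and side of the threshold, 206 lost the call and 5 turned: AACACCAC on ATF1 with 5mC (-0.1725, without half-site probes), the strand differences of TTCCTCAC on CREB1 with 5mC (-0.1729 on log2 signals, -0.5047 with normexp) and 5hmC (-0.2755 with normexp), and that of CTTCTTTT on JUND with 5mC (0.04962, without half-site probes), all in log2 units.

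Limits are the 2 arrays per group, dim arrays such as the second JUND 5hmC array (signal 1.549 times background), probes shared between overlapping 8-mers, and other sites on the same probes.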
